A study of Mus musculus with 6 samples.

Results

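The transcripts of 8 mouse genes were followed in the sensory epithelia of the newborn inner ear. They were taken as a named list of hair cell genes: Slc26a5, Kcna10, Kcnma1, Kcnn2, Hcn2, Chrna9, Chrna10 and Chrna1. Each symbol matched 1 Ensembl gene, so the list covers 8 of the 39179 genes that were counted.

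The data were RNA-seq read counts from the cochlear and the vestibular sensory epithelium of wild-type C57Bl/6J mice at postnatal day 0, with 3 libraries per tissue. The tissue came from 10 mice, males and females pooled, with 20 ears dissected, and 450 ng of RNA went into each library. The labels do not say whether the 3 libraries of a tissue came from separate pools of ears, so the p-values measure the spread between these libraries, which may be technical. Counts on genes ranged from 24464483 to 33664793 per library, and levels are given as CPM, each library's counts scaled to the same total on genes.

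Hair cells turn the movement of their stereocilia into a receptor potential, and potassium and cation channels in their basolateral membrane shape that potential. Outer hair cells of the cochlea carry the motor protein prestin, which changes cell length with voltage. Efferent fibres from the brainstem release acetylcholine onto hair cells, where a receptor of α9 and α10 subunits admits calcium, and calcium opens neighbouring SK potassium channels that hyperpolarise the cell.

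The tissue labels and the rest of the tissue were compared first, because the dissected pieces hold more than hair cells. The 10 hair cell markers together reached 595 to 825 CPM in the cochlear libraries and 1049 to 1351 CPM in the vestibular ones, and 5 of the 10 were higher in the vestibule. Without cochlea 1 or vestibule 2 this count was 3, with the calls of Pou4f3 and Tmc1 lost. Among them, Otof, the synaptic otoferlin gene, made up 9.0 to 14% of the summed marker counts in the cochlea and 29.3 to 39.3% in the vestibule. Markers of endothelium (4 of 4) and macrophages (4 of 4) were higher in the vestibule, although the call of the endothelial gene Cldn5 was lost when any 1 library other than cochlea 1 was left out. Of the 8 supporting cell markers 4 were higher in the cochlea and 1 (Slc1a3) in the vestibule, and Hes5, 1 of the 4, passed the filter on low counts through the cochlear libraries alone. The calls of Slc1a3 and of Sox2, another of the 4, were both lost with the replicate block and without cochlea 2, vestibule 1 or vestibule 2 (3 calls left), and that of Sox2 also without cochlea 1. Cochlea 3 stood apart by its skeletal muscle transcripts, with a summed 305 CPM against 7.64 to 31.5 CPM in the other 5 libraries. A lower level in one of these tissues can come from fewer cells of a type or from less RNA per cell, and the 2 cannot be told apart.

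Differences were tested with edgeR's quasi-likelihood test, and p-values were adjusted by the Benjamini-Hochberg method. The 14723 genes that reached 1 CPM in 3 or more libraries were tested. Of the 8 members, 6 passed an adjusted p of 0.05, beside 27.4% of all genes tested. Slc26a5, Hcn2 and Chrna9 were higher in the cochlea (11.6% of all genes tested), and Kcna10, Kcnma1 and Chrna1 were higher in the vestibule (15.8%). The CPM of the cochlear and vestibular libraries did not overlap for 6 members, the exceptions being Kcnn2 and Hcn2, beside 41.8% of all genes tested. The median absolute log2 fold change of the members was 1.08, beside 0.32 for all genes tested.

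**Figure D1:**
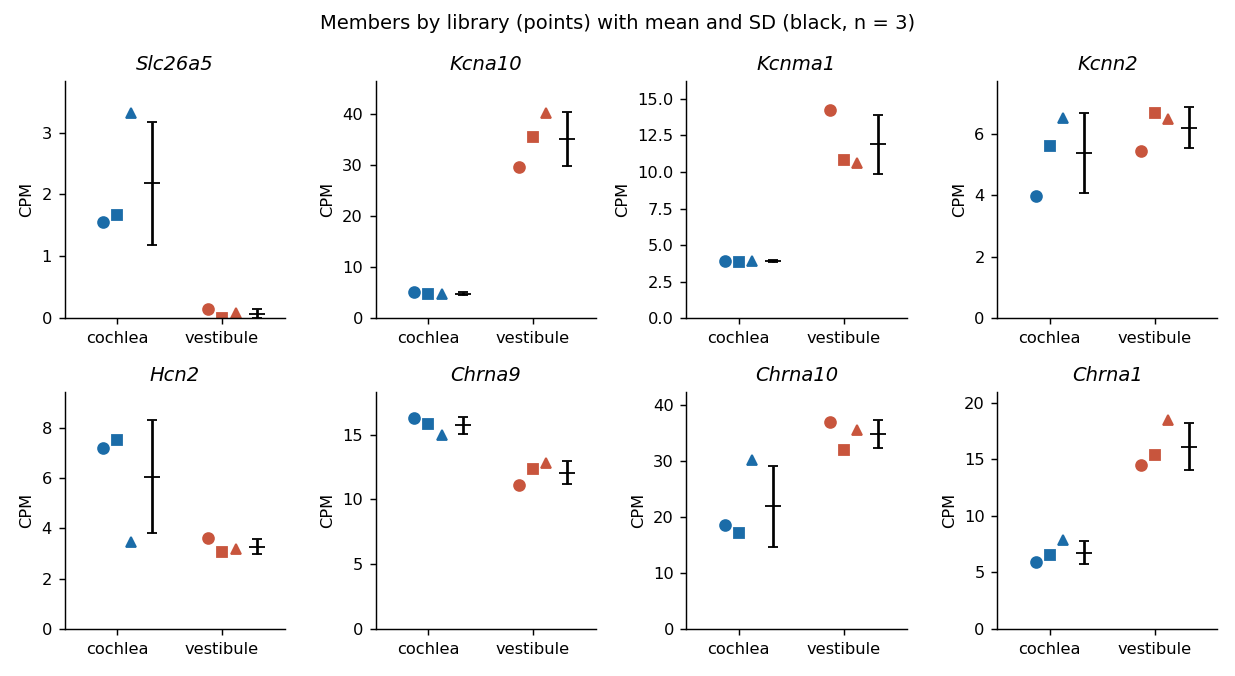
Level of each gene in CPM (vertical axis of each panel, starting at 0) in the 3 cochlear libraries (blue) and the 3 vestibular libraries (red), with circles, squares and triangles for libraries 1, 2 and 3. Black bars give the mean and SD of 3 libraries: Slc26a5 lies near 0 in the vestibule, Kcna10 lies at 29.6 to 40.3 CPM there, and Kcnn2 overlaps between the tissues.

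**Figure D2:**
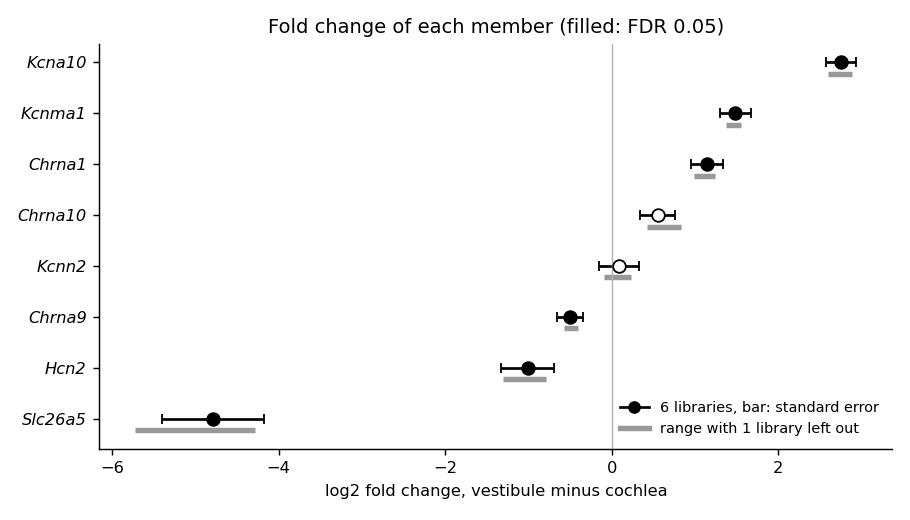
Fitted log2 fold change, vestibule minus cochlea, for each gene (horizontal axis), with the standard error as a black bar and filled points for an adjusted p under 0.05. Grey bars give the range of the fold change when each of the 6 libraries is left out in turn: the range of Kcnn2 crosses 0, from -0.10 to 0.22.

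Slc26a5 encodes prestin and had the largest difference of the 8 genes. The gene (ENSMUSG00000029015) lies on the minus strand of chromosome 5 at 21810655 to 21865604 in GRCm38. The cochlear libraries held 38, 48 and 97 counts, or 1.55, 1.67 and 3.32 CPM. The vestibular libraries held 5, 0 and 2 counts, or 0.15, 0 and 0.08 CPM, and the 0 allows a level of up to 0.117 CPM in that library (3 counts). Every vestibular library was under 1 CPM, and the gene passed the filter on low counts through its cochlear libraries alone. Over the summed 183 and 7 counts, the cochlear level was 26.9 times the vestibular one, with an exact 95% interval of 12.8 to 67.8 that covers counting error only. The fitted log2 fold change was -4.79 ± 0.61 (SE; edgeR's quasi-likelihood test, adjusted p = 0.000555).

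Prestin mRNA was low in the cochlea too, at a mean of 2.18 ± 0.988 CPM (SD, n = 3), and cochlea 3 held about the summed level of the other 2 cochlear libraries. Among 6 outer hair cell markers, Insm1 and Bcl11b, transcription factors of outer hair cells, were also higher in the cochlea. Insm1 stood at 3.19, 4.17 and 3.32 CPM there and at 0.743, 0.545 and 0.51 CPM in the vestibule, a log2 fold change of -2.68. Insm1 and Ocm each passed the filter through 1 tissue alone. Ocm, the gene of the calcium buffer oncomodulin, went the other way, with 0.327 to 0.547 CPM in the cochlea and 25.0 to 36.3 CPM in the vestibule. Lbh was higher in the vestibule as well, and Ikzf2 and Strc did not pass the test.

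Prestin belongs to the SLC26 family of anion transporters, of which 9 of 11 genes were tested. Slc26a5 was the family's 1 gene called higher in the cochlea. Slc26a4, the pendrin gene of the endolymph-lining epithelium, rose by 1.11 on the log2 scale from 8.99 to 12.5 CPM in the cochlea to 22.1 to 28.1 CPM in the vestibule. Slc26a9 was also higher in the vestibule (log2 fold change 1.32), a call lost without cochlea 1, cochlea 2, vestibule 1 or vestibule 2, while 6 other members did not pass the test. Without cochlea 3 the family had 5 calls, against 3 with all libraries. Slc26a3 and Slc26a10 averaged under 1 CPM in each tissue.

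The bases before the start site of Slc26a5, as RefSeq gives it, are shown because this gene had the widest difference. Promoters of 7 of the 8 genes were found in the RefSeq table, and 3 motifs were searched on both strands. These were an E-box (CAGCTG), which basic helix-loop-helix factors such as Atoh1 and MyoD can bind, a POU-homeodomain motif (AATTAAT) of the kind that Pou4f3 binds, and a motif of the Gfi1 repressor (AAATCAC). None of the 3 is present in this window, which says nothing about the factors themselves.
Slc26a5 promoter, GRCm38.p6 chr5:21865605-21865854, minus strand: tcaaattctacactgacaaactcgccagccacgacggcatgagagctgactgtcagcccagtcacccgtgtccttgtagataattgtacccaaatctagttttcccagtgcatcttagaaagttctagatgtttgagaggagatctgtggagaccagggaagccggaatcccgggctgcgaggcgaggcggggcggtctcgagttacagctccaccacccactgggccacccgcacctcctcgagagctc

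Kcna10 had the largest rise toward the vestibule among the 8 genes. It encodes a voltage-gated potassium channel of the Kv1 family and lies on the plus strand of chromosome 3 at 107183056 to 107195721 (ENSMUSG00000042861). The cochlear libraries held 5.11, 4.65 and 4.72 CPM (125, 134 and 138 counts). The vestibular libraries held 29.6, 35.5 and 40.3 CPM (997, 911 and 1027 counts), each more than 5 times any cochlear one. Fitted, this was a log2 fold change of 2.75 ± 0.18 (SE; edgeR's quasi-likelihood test, adjusted p = 1.74e-05). Over 13 alternative fits it lay between 2.60 and 2.89, past the threshold in each.

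In the Kv1 family with its β subunits, 9 of 11 genes were tested, 3 were higher in the vestibule and 1 in the cochlea, with a median log2 fold change of 0.51 over the tested genes against 0.00 over all genes. Kcnab1, an auxiliary β subunit of these channels, rose from 4.96 to 7.56 CPM in the cochlea to 26.9 to 33.1 CPM in the vestibule, a log2 fold change of 2.11. Kcna4, an A-type channel subunit, rose from 0.625 to 0.981 CPM to 3.93 to 4.57 CPM (log2 fold change 2.35), and it passed the filter through its vestibular libraries alone. Kcna6 was higher in the cochlea, at 19.1 to 42.6 CPM against 15.1 to 19.4 CPM, and its libraries overlapped. The Kcna6 call was lost in 8 of 13 alternative fits, among them each that left out 1 library other than cochlea 3. The means of Kcna3 and Kcna7 were under 1 CPM in both tissues.

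Kcnma1 encodes the pore of the large-conductance BK channel, which calcium and voltage open together and which gives mature inner hair cells their fast potassium current. It lies on the minus strand of chromosome 14 at 23289431 to 24014491 (ENSMUSG00000063142). The cochlear libraries were nearly equal, at 3.92, 3.85 and 3.93 CPM, and the vestibular ones held 14.2, 10.8 and 10.6 CPM. The lowest vestibular library was thus above the highest cochlear one. It differed by a log2 fold change of 1.48 ± 0.18 (SE; edgeR's quasi-likelihood test, adjusted p = 0.00046), and it was past the threshold in 13 of 13 alternative fits. BK channels are also a smooth muscle protein, and of 4 tested smooth muscle markers Myh11, Acta2 and Tagln were higher in the vestibule, Myh11 passing the filter through the vestibular libraries alone. Des, also a skeletal muscle gene, was higher in the cochlea, at 10.5 to 26.4 CPM against 5.88 to 7.55 CPM (log2 fold change -1.49). The part of these cells in the Kcnma1 difference was not tested. The list's summed level overlapped between the tissues, at 14.3 to 32.3 CPM in the cochlea and 21.5 to 28.8 CPM in the vestibule. Without Des, the other 4 genes summed to 3.8 to 5.82 CPM in the cochlea and 15.6 to 21.3 CPM in the vestibule, with no overlap.

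Of 9 BK subunit genes, 4 were tested and 2 were called, both higher in the vestibule. Beside Kcnma1 this was Lrrc26, an auxiliary γ subunit, with 0.695, 0.347 and 0.582 CPM in the cochlea and 1.69, 1.95 and 2 CPM in the vestibule (log2 fold change 1.68). Lrrc26 was under 1 CPM in each cochlear library and passed the filter through the vestibular ones alone. The β2 subunit gene Kcnmb2 did not pass the test (log2 fold change -0.55, adjusted p = 0.127 in the same edgeR test), nor did Lrrc55. Kcnmb1, Kcnmb3, Kcnmb4, Lrrc38 and Lrrc52 were not tested, and Lrrc38 had 0 counts in each of the 6 libraries.

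Kcnn2 encodes SK2, the small-conductance channel that calcium entering through the α9α10 receptor opens in hair cells. The gene lies on the plus strand of chromosome 18 at 45268860 to 45686024 (ENSMUSG00000054477). It stood at 3.96, 5.62 and 6.54 CPM in the cochlea and at 5.44, 6.70 and 6.48 CPM in the vestibule, so the tissues overlapped. The log2 fold change was 0.09 ± 0.24 (SE; edgeR's quasi-likelihood test, adjusted p = 0.826), and without cochlea 1, the lowest library, it was -0.10. An antisense gene within its span, A330093E20Rik, held at most 13 counts in any library.

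All 4 genes of the SK and IK family were tested. Kcnn3, which encodes SK3, was the 1 called, higher in the cochlea at 1.72, 2.15 and 2.36 CPM against 1.07, 1.01 and 0.824 CPM (log2 fold change -1.22). Kcnn1 and Kcnn4 did not pass the test, with log2 fold changes of 0.33 and 0.27.

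Hcn2 encodes a cation channel that opens on hyperpolarisation and carries the current called Ih. It lies on the plus strand of chromosome 10 at 79716634 to 79736108 (ENSMUSG00000020331). The cochlear libraries held 7.19, 7.5 and 3.46 CPM and the vestibular ones 3.59, 3.04 and 3.18 CPM. Cochlea 3 therefore fell within the vestibular range, below vestibule 1. The log2 fold change was -1.01 ± 0.31 (SE; edgeR's quasi-likelihood test, adjusted p = 0.0427). It was called without cochlea 3 (log2 fold change -1.31, adjusted p = 0.00205), while leaving out any of the other 5 libraries in turn gave adjusted p-values of 0.0752 to 0.157.

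Hcn2 is also a channel of neurons, and the neuron markers varied in the same libraries. Their summed level was 514, 465 and 159 CPM in the cochlear libraries and 326, 105 and 129 CPM in the vestibular ones, with 3 of 7 (Tubb3, Prph and Stmn2) called higher in the cochlea, none of them without cochlea 1 or cochlea 2. Cochlea 1 and 2 were high and cochlea 3 was low for both Hcn2 and these markers, and none of the 7 was at 0 in any library. Their part in the Hcn2 difference was not tested. The 3 genes whose levels over the 6 libraries lay nearest to those of Hcn2, among 14543 searched, were Prkar1b, Acsbg1 and Rab3a. Prkar1b lay at a Euclidean distance of 0.23 on the log2 scale after centring, and Rab3a encodes a small GTPase of synaptic vesicles.

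Hcn3 and Hcn4, which encode channels of the same family, did not pass the edgeR test. Their log2 fold changes were -0.74 (adjusted p = 0.0676) and -0.24 (adjusted p = 0.46).

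**Figure D3:**
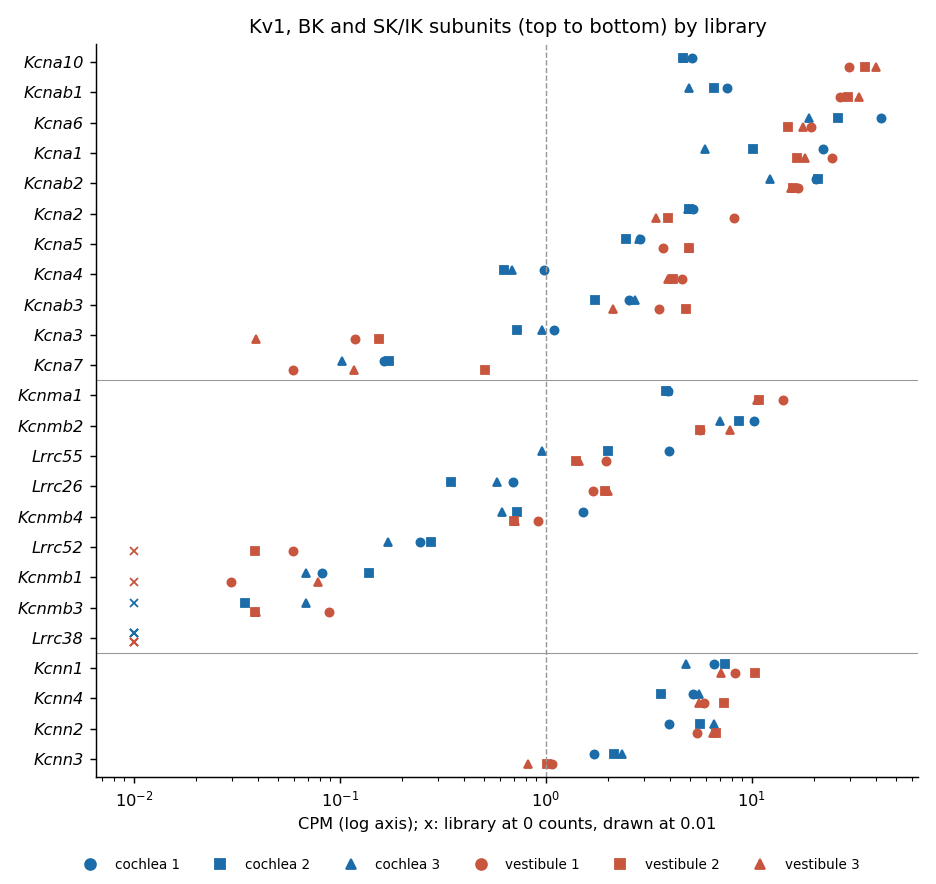
Levels of the Kv1, BK and SK/IK genes in each library, in CPM on a log axis, with cochlear libraries in blue above vestibular ones in red. The dashed line marks 1 CPM, and crosses at the left edge mark libraries with 0 counts: Kcna10, Kcnab1, Kcna4, Kcnma1 and Lrrc26 lie to the right in the vestibule.

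Of 10 other potassium and calcium channel genes known from hair cells, 3 were called, and 5 without cochlea 3. Kcnj2, an inward rectifier, rose from 2 to 2.22 CPM in the cochlea to 7.61 to 11.3 CPM in the vestibule, and Kcnj13 was higher in the vestibule as well (log2 fold changes 2.06 and 1.34). The Kcnj13 call was lost with the replicate block. Kcnh2, the ERG channel, was higher in the cochlea, at 28.9 to 31.5 CPM against 17.2 to 24.6 CPM, a call lost without vestibule 2. The median of the 10 log2 fold changes was 0.01.

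Chrna9 encodes the α9 subunit of the efferent acetylcholine receptor. It lies on the plus strand of chromosome 5 at 65934921 to 65977326 (ENSMUSG00000029205). The cochlear libraries held 16.3, 15.9 and 15 CPM and the vestibular ones 11.1, 12.3 and 12.8 CPM, without overlap. The difference was small, with a log2 fold change of -0.50 ± 0.16 (SE; edgeR's quasi-likelihood test, adjusted p = 0.0444). Leaving out cochlea 1, cochlea 2, vestibule 1 or vestibule 2 ended the call, with adjusted p-values of 0.112 to 0.151, and the adjusted p was 0.0424 without cochlea 3 and 0.046 without vestibule 3. With library sizes alone as the scaling, which put the median of all genes at 0.13 on the log2 scale against 0.00 with TMM, it was -0.38 with an adjusted p of 0.0875.

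Chrna10 encodes the α10 subunit and its fold change had the opposite sign. It lies on the minus strand of chromosome 7 at 102111266 to 102116828 (ENSMUSG00000066279). The cochlear libraries held 18.5, 17.1 and 30.2 CPM and the vestibular ones 37.0, 32.0 and 35.4 CPM. Cochlea 3 lay close to the vestibular libraries, and the tissues did not overlap. The log2 fold change of 0.55 ± 0.21 did not pass the test (SE; edgeR's quasi-likelihood test, adjusted p = 0.0842). Without cochlea 3 it was 0.83 with an adjusted p of 0.00353. Exons of Chrna10 overlap those of Art1 on the opposite strand, which held 14 to 40 counts in the cochlea and 61 to 69 in the vestibule against 452 to 1246 for Chrna10. The strand setting of the counting is not given in the sources used here.

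The ratio of both subunits within a library does not depend on library size. There were 1.13, 1.08 and 2.02 Chrna10 counts per Chrna9 count in the cochlear libraries and 3.33, 2.59 and 2.77 in the vestibular ones. The ratio was higher in each vestibular library than in any cochlear one, with cochlea 3 between the others. On the log2 scale the ratio averaged 0.43 ± 0.50 for the cochlea and 1.53 ± 0.19 for the vestibule (SD, n = 3 each), a difference of 1.09. An exact permutation test gave a two-sided p of 0.1, the smallest that 3 against 3 libraries allow.

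**Figure D4:**
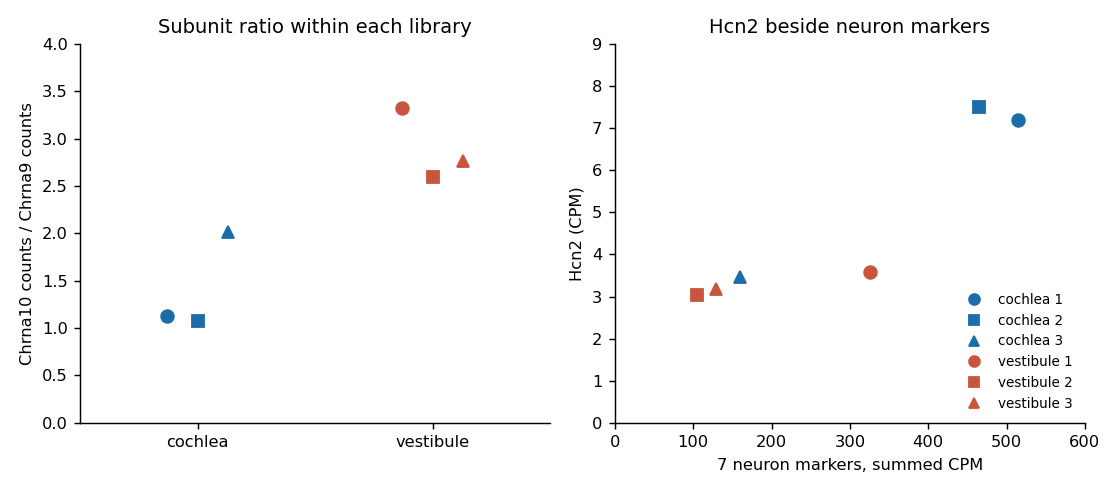
Left, Chrna10 counts divided by Chrna9 counts in each library (vertical axis from 0), between 1.08 and 2.02 in the cochlea (blue) and between 2.59 and 3.33 in the vestibule (red). Right, Hcn2 in CPM against the summed CPM of 7 neuron markers, with circles, squares and triangles for libraries 1, 2 and 3: cochlea 1 and 2 lie apart at the upper right.

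Chrna1 encodes the α1 subunit, best known from the receptor of the muscle endplate. It lies on the minus strand of chromosome 2 at 73563215 to 73580338 (ENSMUSG00000027107). The cochlear libraries held 5.89, 6.53 and 7.84 CPM and the vestibular ones 14.5, 15.4 and 18.4 CPM, a clear separation. The log2 fold change was 1.14 ± 0.20 (SE; edgeR's quasi-likelihood test, adjusted p = 0.00274), past the threshold in 13 of 13 alternative fits, where it ranged from 0.99 to 1.25. Of 10 skeletal muscle markers, 5 were tested, and Actn3 was the 1 called, higher in the cochlea. That call was lost without cochlea 2, vestibule 1 or vestibule 3. Cochlea 3, with 147 CPM of the muscle actin gene Acta1 against 1.84 to 11.2 CPM elsewhere, had less Chrna1 than any vestibular library. Of the myogenic factors, Myod1 held 0 to 2 counts per library and was at 0 in 4 of the 6, and Myog held 2 to 12 counts in each. The list's summed level was 7.64 to 305 CPM in the cochlea and 11.5 to 31.5 CPM in the vestibule, and the part of muscle in the Chrna1 difference was not tested.

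Of the 16 nicotinic subunit genes, 10 were tested, and 4 were higher in each tissue. Chrnb1 and Chrng, which encode the β1 and γ subunits that join α1 in the fetal muscle receptor, were higher in the vestibule as well. Chrnb1 rose from 19.3 to 24.8 CPM to 54.0 to 68.1 CPM (log2 fold change 1.34), and Chrng from 6.62 to 11.1 CPM to 16.4 to 20.5 CPM (0.92). The Chrng call was lost without cochlea 1 or vestibule 3. Chrnd and Chrne, for the δ and ε subunits, were not tested, with at most 0.65 and 0.234 CPM in any library. Chrna4, a subunit of neuronal receptors, had the largest rise of the family, from 7.84 to 13.1 CPM to 60.1 to 70.9 CPM (log2 fold change 2.47).

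The subunits higher in the cochlea were Chrna9, Chrna7, Chrnb3 and Chrnb4. Chrna7, whose subunit forms channels alone, stood at 2.53 to 2.91 CPM in the cochlea and 0.0779 to 0.386 CPM in the vestibule (log2 fold change -3.47), and it passed the filter through the cochlear libraries alone. Over the 6 libraries it was also the gene nearest to Slc26a5, at a distance of 2.02 on the log2 scale, followed by C130060K24Rik and the matrilin gene Matn1. Chrnb3 and Chrnb4 had log2 fold changes of -1.87 and -1.55, and the Chrnb4 call was lost without cochlea 2, vestibule 1 or vestibule 2. Chrnb2 did not pass the test (-0.56), and Chrna2, Chrna3, Chrna5 and Chrna6 averaged under 1 CPM in both tissues.

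**Figure D5:**
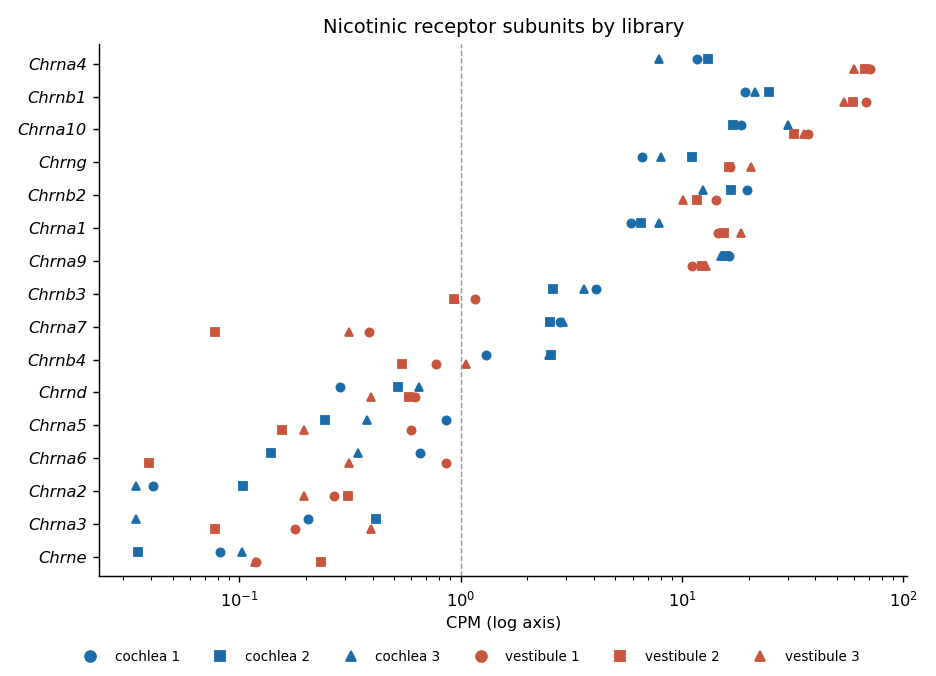
Levels of the 16 nicotinic receptor subunit genes in each library, in CPM on a log axis, ordered by their higher tissue mean, with cochlear libraries in blue above vestibular ones in red. The dashed line marks 1 CPM: Chrna4, Chrnb1, Chrng and Chrna1 lie to the right in the vestibule, and Chrna7, Chrnb3 and Chrnb4 lie to the right in the cochlea.

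Genes that assemble or cluster these receptors were also read, 7 in all. Ric3, a chaperone of nicotinic subunits, was higher in the cochlea, at 9.99 to 14.9 CPM against 7.69 to 9.30 CPM (log2 fold change -0.72). Dok7, an activator of the kinase MuSK at the endplate, was higher in the vestibule, at 14.6 to 16.2 CPM against 7.56 to 7.63 CPM (0.88). Dok7 was called in 13 of 13 alternative fits and Ric3 in 6, and among the fits with 1 library left out Ric3 was called only without cochlea 3. The other 5 did not pass the test. In the list of cholinergic terminal genes, Ache, which encodes acetylcholinesterase, was higher in the cochlea (log2 fold change -2.13), and the peptide gene Calca was higher in the vestibule (0.75). The Ache call was lost without cochlea 1, cochlea 2 or vestibule 2. The Calca call was lost with the replicate block and when any 1 library other than cochlea 1 was left out. Ache followed the neuron markers over the cochlear libraries, with 20.3, 17.5 and 5.89 CPM. Slc5a7 did not pass the test, and Chat is listed at 0 counts in each library. Slc18a3, annotated within its span, had no row of its own in the counts, and how reads of this locus were assigned is not known.

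The promoters of Chrna1 and Chrna9 are shown because they were the members whose windows held a searched motif. CAGCTG, in capitals, occurred at -92 and -44 before the start of Chrna1 and at -13 before that of Chrna9, counted to the motif's first base with -1 next to the start. The RefSeq start of Chrna9 lies inside the longer gene span given above. Of 32851 promoter windows of the same length, 13% held the E-box, 2.46% the POU-homeodomain motif and 2.75% the Gfi1 motif on either strand, and no promoter of the 7 members held either of the last pair.
Chrna1 promoter, GRCm38.p6 chr2:73580339-73580588, minus strand: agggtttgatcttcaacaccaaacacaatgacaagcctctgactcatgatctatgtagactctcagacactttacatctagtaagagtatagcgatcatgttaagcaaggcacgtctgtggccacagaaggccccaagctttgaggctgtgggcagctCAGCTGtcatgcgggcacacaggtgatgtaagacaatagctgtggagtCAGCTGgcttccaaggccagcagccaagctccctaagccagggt
Chrna9 promoter, GRCm38.p6 chr5:65966874-65967123, plus strand: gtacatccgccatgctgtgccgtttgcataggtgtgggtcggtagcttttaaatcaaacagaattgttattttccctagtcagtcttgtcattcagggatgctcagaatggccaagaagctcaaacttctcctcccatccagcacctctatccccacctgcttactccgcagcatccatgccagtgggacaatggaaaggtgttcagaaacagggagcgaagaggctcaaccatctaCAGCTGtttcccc

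Relative to the hair cell markers of the same library, the order of the 8 fold changes was as above, and each value was lower because the marker sum was higher in the vestibule. The differences of Kcna10, Kcnma1 and Chrna1, vestibule minus cochlea, were 2.14, 0.88 and 0.54 on the log2 scale. Those of Slc26a5, Hcn2, Chrna9 and Kcnn2 were -5.64, -1.52, -1.09 and -0.48. The Slc26a5 value rests on 0.5 added to the 0 count of vestibule 2, and it was -4.78 without that library and -5.19 with 1 added to each count. The libraries of the tissues did not overlap for these 7 genes, each with a two-sided exact permutation p of 0.1, the smallest possible, or 0.114 after Benjamini-Hochberg adjustment over 8 ratios. The same ratio did not overlap for 63.9% of all genes tested, since the marker sums of the tissues do not overlap either, and Kcnn2, whose CPM overlapped, is among the 7. Chrna10 made counts equal to 0.0235 to 0.0367 of the marker sum in the cochlea and 0.0274 to 0.0338 of it in the vestibule, a log2 difference of -0.00 (exact permutation p = 1). These ratios depend on the choice of markers, of which Otof and Myo6 took most counts.

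Levels of different genes were compared as RPKM, the CPM divided by the gene's length in kilobases, from the deposited matrix. In the cochlea, Chrna10 was highest at a mean of 8.75 ± 2.88 RPKM (SD, n = 3), followed by Chrna9 at 5.22 ± 0.222 RPKM. Kcna10 (2.23 RPKM), Hcn2 (1.90 RPKM) and Chrna1 (1.54 RPKM) came next, with Hcn2 overlapping both neighbours. Kcnma1, Kcnn2 and Slc26a5 followed at 0.778, 0.737 and 0.714 RPKM, each overlapping the next.

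In the vestibule, Kcna10 moved to the top at 16.2 ± 2.47 RPKM and overlapped Chrna10 at 13.9 ± 1.02 RPKM. Chrna9 (4.01 RPKM) and Chrna1 (3.69 RPKM) overlapped, and Kcnma1 (2.37 RPKM), Hcn2 (1.03 RPKM), Kcnn2 (0.85 RPKM) and Slc26a5 (0.0276 RPKM) followed without overlap. The place of Kcnma1 rests on its gene length, since the deposited values imply 5024 bases and the annotated exons span 16976. With the annotated length Kcnma1 ranked last in the cochlea and seventh of 8 in the vestibule.

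Over the 6 libraries, the levels nearest to those of the remaining members belonged to genes of varied kinds. Kcna10 was nearest to Mgp, the matrix Gla protein gene of cartilage and vessels (distance 0.21 on the log2 scale), Serpine3 and Pdlim1. Kcnma1 was nearest to Gprc5b, Hspa4l and Angptl2, and Chrna1 to Zmynd12, Lrrc73 and Gpr37. Chrna9 was nearest to Hadh (0.06), Ppp2r1a and Ptbp3, Chrna10 to Cspg4, Heg1 and Palld, and Kcnn2 to Sf1, Snhg5 and Rrad.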

How the data were processed

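RNA from pooled cochlear and vestibular sensory epithelia was sequenced as 3 TruSeq Stranded mRNA libraries per tissue. The authors aligned reads to GRCm38 with TopHat2 2.1.0 and deposited raw counts per Ensembl gene from HTSeq 0.5.4p5. SAMtools 0.1.18 and edgeR 3.4.2 also stand in the submitters' processing notes. A deposited matrix holds log2 RPKM values that the authors made with edgeR, used here for levels between genes.

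The 5 summary lines of each count file (18.5 to 20.6% of its total) were left out. Genes with at least 1 CPM in at least 3 libraries were tested with edgeR 4.0.16 (TMM, quasi-likelihood test, Benjamini-Hochberg adjusted p under 0.05) in R 4.3.3. Alternatives were DESeq2 1.42.0, limma 3.58.1 (voom), other scalings and filters, a replicate block and left-out libraries. On simulated data the edgeR test called 1 of 50 genes changed 1.5-fold, 26 of 50 changed 2-fold and 50 of 50 changed 4-fold. It also called 8 unchanged genes, and differences of 1.5-fold were thus mostly missed. Ratios used 0.5 added to each count and exact permutation tests. Positions and symbols came from GENCODE annotation of GRCm38, promoters from RefSeq. Same-numbered libraries correlated at -0.18, -0.26 and -0.47 after centring on the tissue means. These values give no sign of pairing by number, but with 3 libraries per tissue they cannot exclude it.

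The members and gene lists were chosen with earlier results of these data known. The rule named all 8 members, family genes past the threshold or averaging under 1 CPM, marker genes that move with a member, and the 3 genes nearest to each member. Nearness was the Euclidean distance between centred log2 levels over the 6 libraries. Family genes that did not pass were named where few, after their values were seen. Other marker lists gave 2 cochlear and 4 vestibular calls for mesenchyme and cartilage (7 genes), 4 vestibular for dark cells and stria (5), 3 vestibular for Schwann cells (5), 0 for red blood cells (5; edgeR gave 0 at an unadjusted p under 0.05 and DESeq2 and limma-voom called 0, but 3 were called without cochlea 1) and 1 cochlear and 2 vestibular for inner hair cells (3). No matrix column was without a sample. 1 listed gene, Slc18a3, was not matched. A listed family gene is not reported here.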

Additional observations from a re-analysis of the deposited data

How the results depend on the processing

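Slc26a5, Kcna10, Kcnma1 and Chrna1 kept their direction and stayed past the threshold in 13 of 13 alternative fits, Slc26a5 with log2 fold changes from -5.72 to -4.29. The calls of Hcn2 and Chrna9 held in 5 and 6 of the 13. Hcn2 was not called with limma-voom (-0.91), with library sizes alone (-0.88) or with the replicate block (-0.94), and ranged from -1.31 to -0.79 with 1 library left out. Chrna9 was not called with library sizes alone (-0.38), without the filter on low counts (-0.52) or with the replicate block (-0.50), and ranged from -0.58 to -0.41 with 1 library left out. Chrna10 ranged from 0.43 to 0.83 and was called without cochlea 3 (0.83), and Kcnn2 ranged from -0.10 without cochlea 1 to 0.22. The count of members higher in the cochlea was 1 with library sizes alone and 1 with the replicate block, and 1 to 3 with 1 library left out. The causes were not tested.

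Over all genes, 4036 were called (1711 higher in the cochlea), with 2618 (1009) under the replicate block and 2655 to 4713 (995 to 1982) with 1 library left out, the lowest without vestibule 2 and the highest without cochlea 3. Library sizes alone put 68.8% of calls in the vestibule, against 57.6%. The replicate numbers are not known to mark shared material, and no library correlated best with its own number. In the order per length, 5 of 8 members kept their rank in each tissue with annotated exon lengths, and 5 to 6 in the cochlea with 1 cochlear library left out. Neuron markers were called in 0 to 5 cases of 7 with 1 library left out, 0 without cochlea 1 or cochlea 2. Low counts limit Slc26a5, with 7 vestibular counts in all.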
